A study of Homo sapiens with 9 samples.

Results

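The data compared nascent RNA of the WT line 3 h after UV-C with that of the same line after mock treatment, along the first 100 kb downstream of annotated transcription start sites. The WT 3 h file and the WT mock file each held 1 library, and the comparison covered the 8791 transcript identifiers present in both, of 9805 identifiers found in any of the 9 libraries of the series. The 3 h file listed 351 further identifiers and the mock file 235, which were not compared. Identifiers were sorted by their level in mock, defined as the mean signal per 200-bp bin from 0 to 25 kb: 5284 had a level under 1, 1774 a level from 1 to 4, 1518 a level from 4 to 20 and 215 a level over 20. The WT columns of 3 tables of averages, made by the authors from 308 genes of at least 100 kb, 787 genes of at least 50 kb and 1473 genes of at least 25 kb, were described beside them.

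UV-C light joins neighbouring pyrimidines in DNA into bulky lesions. RNA polymerase II that meets such a lesion in the transcribed strand stalls there, and transcription-coupled repair removes lesions at the sites of stalled polymerase. A lesion can lie anywhere along a gene, so a polymerase is more likely to meet one the longer the stretch it has to cross, and nascent RNA is known to thin out with distance from the start after UV while the first kilobases go on being transcribed.

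The cells were RPE1, an hTERT-immortalised human line from retinal pigment epithelium. Both WT libraries came from the line labelled RPE1 iCas9 p53/puro-dKO WT, which carries an inducible Cas9 and a double knockout of p53 and of the puromycin resistance gene, as do all lines of the series, and which has intact STK19. At 3 h, cells had received 12 J/m2 of UV-C and were then labelled for 30 min with 2 mM bromouridine, a pulse that began 2.5 h after irradiation by the sample's own label, whereas the treatment protocol places the full 3 h before the pulse. Mock cells received 0 J/m2 and the same pulse. In BrU-seq, RNA that took up bromouridine is pulled down with an anti-BrdU antibody, so the reads come from RNA made during the pulse. An STK19 knockout (KO) and the knockout with an STK19-TY transgene (rescue), treated in the same ways, were used for reference values.

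Each condition had 1 library, so no difference between 3 h and mock had a replicate check and none carries a p-value; intervals given for shares are 95% Wilson intervals and cover counting error over identifiers only. Summed signal was 2.09e+07 in the 3 h library and 1.90e+07 in mock, against 1.86e+07 to 2.13e+07 over all 9 libraries. Signal was therefore read as relative within a library: no spike-in is named in the sources used here, and a fall in total transcription would not be seen in such values. For the same reason fewer transcribing cells and less nascent RNA per cell cannot be told apart. Values were whole multiples of a smallest step, 0.760 at 3 h and 1.35 in mock, so that a level of 1 corresponded to 164 steps over 25 kb at 3 h and 92.4 steps in mock. Of 9377 identifiers in either WT file, 0 matched the gene table given for this work. Gene names, gene ends, markers of the cell type and lists of stress or repair genes were therefore not analysed, and a window far from a start can lie past the end of its gene or over a neighbour.

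At 3 h, nascent RNA in the averages of the longest genes was stacked into the first 15 kb and thinned beyond it. In genes of at least 100 kb the signal peaked at 31.0 per bin at 800 bp from the start at 3 h, against 16.4 at 600 bp in mock. The ratio of 3 h to mock, taken as a running mean over 1 kb, was highest at 2400 bp, where it reached 2.45, and it crossed 1 at 17.0 kb. The distance by which 50% of the 0 to 100 kb signal had been collected was 7.80 kb at 3 h and 35 kb in mock.

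In genes of at least 100 kb the WT profile fell unevenly with distance. Between 5 and 25 kb the log2 ratio changed by -0.75 per 10 kb, and between 25 and 60 kb by -0.29 per 10 kb. The second slope averages a flat part and a drop, as the 5-kb windows show. From 25 to 50 kb their ratios lay between 0.636 and 0.709, with 0.709 from 40 to 45 kb. The ratio then was 0.433 from 50 to 55 kb and 0.251 from 70 to 75 kb. A second plateau followed: the 6 windows from 70 kb on lay between 0.251 and 0.289. The signal at 3 h was 1.297 per bin from 40 to 45 kb and 0.507 per bin from 70 to 75 kb, against 1.83 and 2.02 in mock for the same windows. The mock profile was thus nearly level over this stretch, and the decline lay in the 3 h profile. The flat part was not general. In genes of at least 50 kb the ratio fell from 0.730 at 25 to 30 kb to 0.520 at 45 to 50 kb. In genes of at least 25 kb it lay between 0.721 and 0.764 over these windows.

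Length changed the far part of the profile more than the near part. The highest ratio was 2.45, 2.201 and 1.96 in genes of at least 100, 50 and 25 kb, at 2400, 2400 and 2800 bp. The crossing of 1 lay at 17.0, 18.2 and 17.8 kb in the same order. From 75 to 100 kb the ratio was 0.272 in genes of at least 100 kb, 0.529 in genes of at least 50 kb and 0.773 in genes of at least 25 kb, and the shorter sets include genes that end before that region. The sets are nested, since a gene of at least 100 kb counts in all 3.

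**Figure D1:**
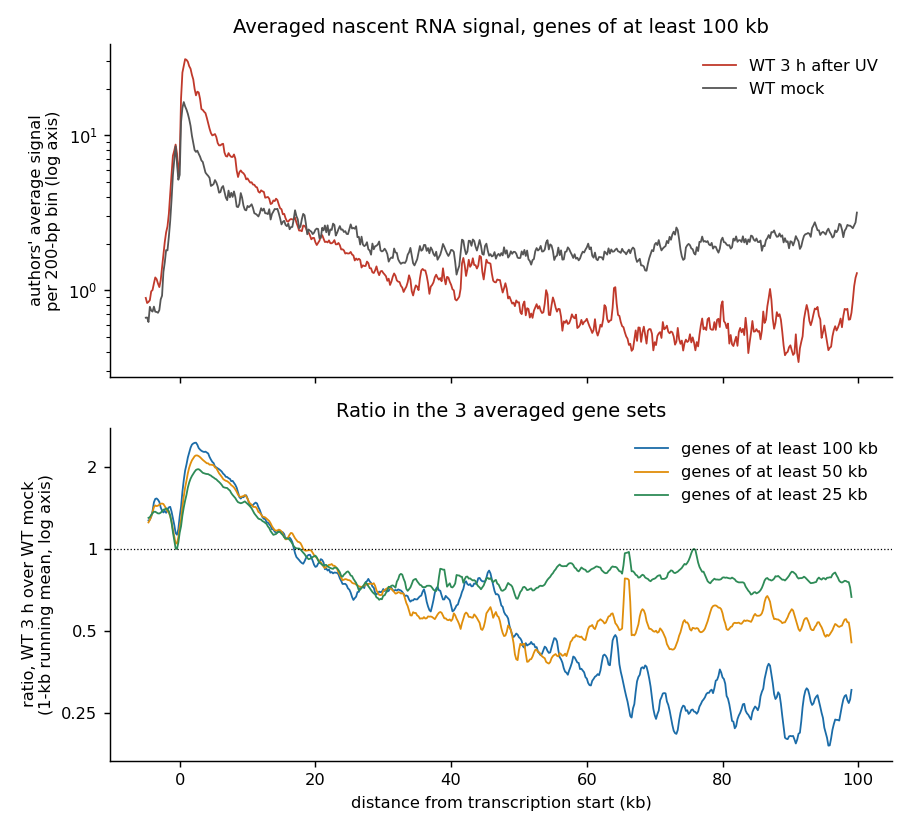
The upper plot gives the authors' average signal per 200-bp bin (log axis) against distance from the start in kb for genes of at least 100 kb, at 3 h (red) and in mock (grey). The lower plot gives the ratio of WT 3 h to WT mock as a 1-kb running mean (log axis) for the 3 gene sets. The curves cross 1 at 17.0 to 18.2 kb. In 5-kb windows the set of at least 50 kb has the lowest ratio from 30 to 55 kb, and the set of at least 100 kb from 55 kb on.

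The averages also differed at the start itself. The ratio over the first 1 kb was 1.69 in genes of at least 100 kb, under the 1.79 of the window from 5 to 10 kb and the highest ratio of 2.45 at 2400 bp. Upstream of the start, from 5 to 1 kb before it, the ratio was 1.41, from 1.76 per bin at 3 h and 1.25 in mock. The sources used here do not say whether reads were counted by strand, so upstream signal may come from either strand.

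In the library files the same displacement of the summit away from the start appeared in each of the 3 classes with a mock level of 1 or more. In the class from 4 to 20 the highest bin held 37.3 per identifier at 3 h and lay at 1200 bp, against 26.9 at 600 bp in mock. In the class from 1 to 4 the highest bin held 9.35 at 1200 bp at 3 h, against 7.51 at 600 bp in mock. In the class over 20 it held 168.9 at 1600 bp at 3 h, against 120.4 at 1200 bp in mock. The summit was thus higher and 400 or 600 bp farther downstream at 3 h. Its place also varied between lines without UV. In the averages of genes of at least 25 kb and of at least 50 kb, the mock summit lay at 600 bp in WT, 1200 bp in KO and 400 bp in rescue. At 3 h it lay at 1200, 400 and 400 bp in the set of at least 25 kb, in the same order. In the set of at least 50 kb it lay at 1200, 1000 and 1200 bp. The KO summit was thus nearer the start at 3 h in both sets. In genes of at least 100 kb the lines lay closer together. The mock summit was at 600 bp in WT, 800 bp in KO and 600 bp in rescue, and the 3 h summit at 800 bp in each line.

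Most of the gain lay past the first kilobase. In the class from 1 to 4 the mean signal of the first 1 kb was 6.77 at 3 h and 6.13 in mock, while that of the next 4 kb was 6.50 at 3 h and 3.73 in mock. The first 1 kb over the next 4 kb therefore stood at 1.04 at 3 h and 1.65 in mock. The same quotient was 0.958 at 3 h and 1.34 in mock in the class from 4 to 20, and 0.855 at 3 h and 0.984 in mock in the class over 20. Just upstream, in the bin at -200 bp, the ratio of 3 h to mock was 0.786, 0.904 and 1.04 in the classes from 1 to 4, 4 to 20 and over 20. The ratio thus had a trough at the start, with values above 1 on both sides of it, in all 3 classes; in the class over 20 the trough did not go below 1.

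**Figure D2:**
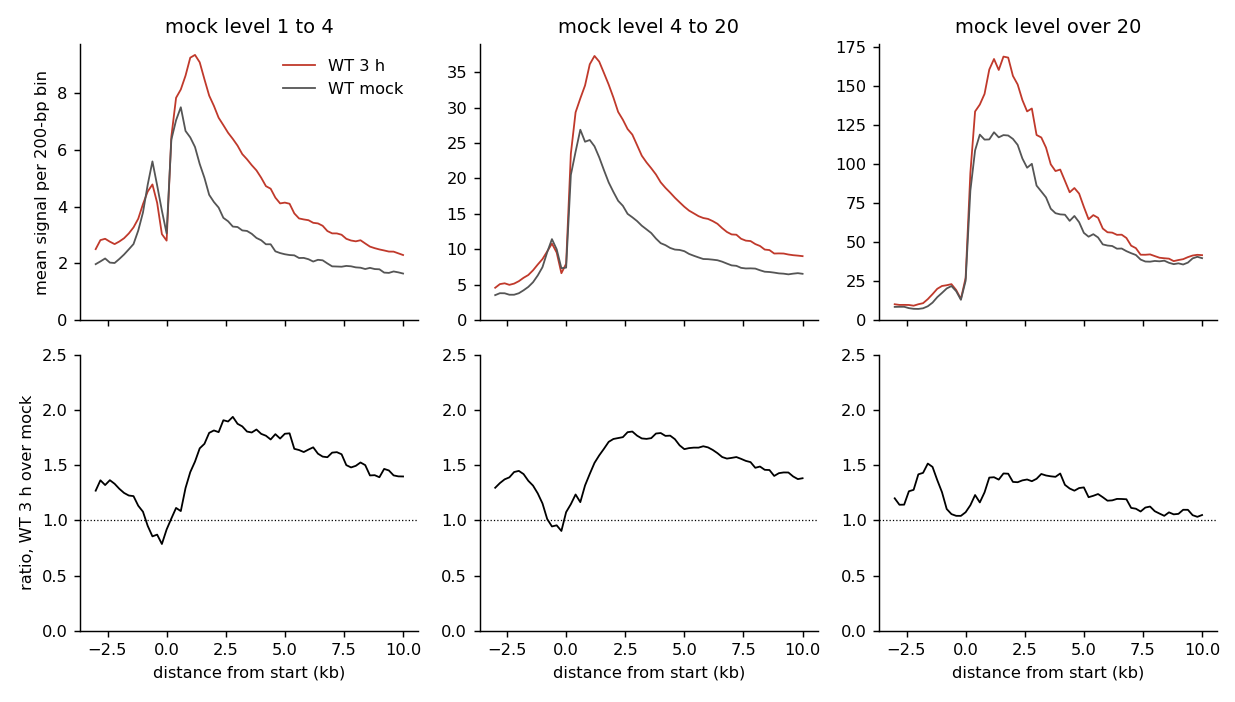
The upper row gives the mean signal per 200-bp bin against distance from the start in kb at 3 h (red) and in mock (grey) for the 3 classes with a mock level of 1 or more, each on its own linear axis. The lower row gives the ratio of 3 h to mock. The summit lies at 1200, 1200 and 1600 bp at 3 h and at 600, 600 and 1200 bp in mock, and the ratio dips next to the start.

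Over 5-kb windows, in values as deposited, the first 10 kb gained in signal in each class with a level of 1 or more. From 0 to 5 kb the pooled ratio, the summed 3 h signal of a class over its summed mock signal, was 1.56 in the class from 1 to 4, 1.57 in the class from 4 to 20 and 1.34 in the class over 20. From 5 to 10 kb it was 1.56, 1.55 and 1.14. The class under 1 had a pooled ratio of 1.25 from 0 to 5 kb, at means of 0.286 per bin at 3 h and 0.229 in mock. The first window with a pooled ratio under 1 began at 30, 25 and 15 kb in the classes from 1 to 4, 4 to 20 and over 20, and at 15 kb in the class under 1. The order of the classes depended on how they were cut, since the mock level that sorts identifiers is also the lower term of the ratio. In the order used above, the ratios from 0 to 5 kb were 1.498, 1.56 and 1.34 with classes cut on KO and rescue mock, and 1.301, 1.54 and 1.48 with classes cut on the mean of the WT pair. The first window under 1 began at 25, 35 and 15 kb with classes cut on KO and rescue mock, and at 15, 30 and 25 kb with classes cut on the WT mean. No order by level is therefore read from these values. Over all levels of 1 or more the first window began at 25 kb, and at 10 kb once the 3 h values were rescaled to a median level change of 0. By class, in the order used above, the rescaled ratios from 0 to 5 kb were 1.18, 1.19 and 1.01. The first rescaled window under 1 began at 10, 10 and 5 kb, so the class over 20 no longer gained from 5 to 10 kb.

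The class over 20 had its deepest loss at middle distances. From 35 to 40 kb it held 5.25 per bin at 3 h and 7.39 in mock, a pooled ratio of 0.711, and its 9 windows from 15 to 60 kb all lay below 1. In the class from 1 to 4 the lowest pooled ratio was 0.872, in the window from 95 to 100 kb, and in the class from 4 to 20 it was 0.972, from 30 to 35 kb. These minima came from summed signal, to which a few identifiers contribute much.

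Summed signal and single identifiers gave different pictures far from the start. From 75 to 100 kb the pooled ratio over the 3507 identifiers with a mock level of 1 or more was 0.976, yet the median signal there was 0.328 per bin at 3 h and 0.899 in mock. The 10% of these identifiers with the most signal in that region held 62.1% of it, and without them the pooled ratio was 0.742. By class, the median far signal was 0.246 at 3 h and 0.715 in mock for levels from 1 to 4, 0.465 at 3 h and 1.09 in mock for levels from 4 to 20, and 0.973 at 3 h and 1.44 in mock for levels over 20.

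The share of identifiers with less signal at 3 h than in mock climbed with distance. Over all 5720 identifiers with signal from 0 to 5 kb it was 38.6%, and over all 6873 with signal from 75 to 100 kb it was 61.8%. In the class from 4 to 20 it was 24.3% (95% interval 22.2 to 26.6) from 0 to 5 kb, 50.2% (47.6 to 52.7) from 20 to 25 kb and 64.0% (61.4 to 66.5) from 35 to 40 kb, with no further climb to 95 to 100 kb, where it was 63.0% (60.1 to 65.8). In the class over 20 it was 53.1% (46.4 to 59.7) from 15 to 20 kb, an interval that includes 50%. In the class from 1 to 4 it was 46.5% (44.2 to 48.9) in the same window, and past 35 kb the shares of this class lay between 64.0% and 68.0%. No order by level is read from these shares either, since the classes were cut on WT mock.

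**Figure D3:**
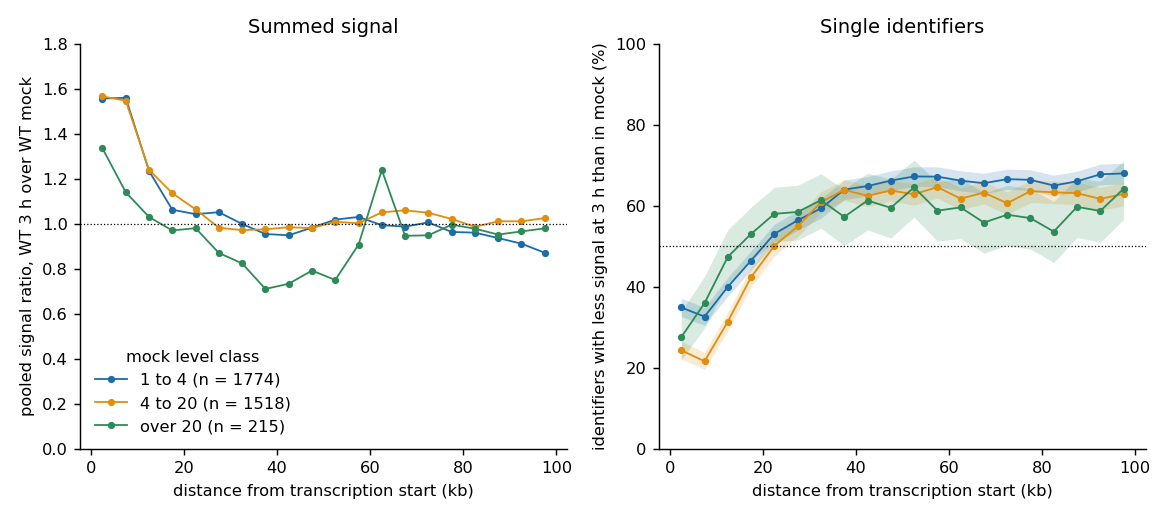
The left plot gives the pooled ratio of WT 3 h to WT mock in 20 windows of 5 kb, placed at their midpoints in kb, for the 3 classes with a mock level of 1 or more. The right plot gives the percentage of identifiers with less signal at 3 h than in mock among those with signal in the window, with shaded 95% Wilson intervals. Far from the start the pooled ratios of the class from 4 to 20 lie near 1, while past 30 kb the right-hand shares stay above 60% in the classes from 1 to 4 (from 35 kb) and 4 to 20, and lie between 53.7% and 64.6% in the class over 20.

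Near share, meaning the percentage of an identifier's first 100 kb of signal found within its first 25 kb, does not depend on how a library was scaled. Its median was 57.3% at 3 h and 37.6% in mock for levels from 1 to 4, 68.9% at 3 h and 51.8% in mock for levels from 4 to 20, and 81.4% at 3 h and 74.2% in mock for levels over 20. The near share was higher at 3 h in 66.6% (64.3 to 68.7), 71.6% (69.3 to 73.8) and 65.6% (59.0 to 71.6) of these identifiers. The median change of single identifiers was 5.54, 5.51 and 1.78 percentage points, much less than the shift of the medians, and the 75th percentile of the change was 21.4, 16.9 and 7.65 points. Most of the change thus sat in a part of each class.

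That part was found by how far signal reached in lines not used in the comparison. The mean of the KO and rescue mock libraries was used to measure, for 3498 identifiers with a level of 1 or more there and a place in all 9 files, the step of signal at the start (0 to 2 kb over 5 to 1 kb upstream) and the extent of continuous signal (consecutive 5-kb windows at 0.5 or more). These groups were chosen after other values of the 3 h library had been seen. The median change of near share was 0.36 points in 281 identifiers whose first window was already below 0.5, 0.89 points in 266 with an extent of 5 to 10 kb, 0.94 points in 438 identifiers with an extent of 15 to 20 kb, 2.84 points in 612 with 25 to 35 kb, 8.67 points in 831 with 40 to 70 kb, 11.3 points in 326 with 75 to 95 kb and 16.0 points in 744 whose signal spanned the whole 100 kb. The change grew with extent at each step. The signal past 25 kb bounds the change that a near share can show. An extent ends at the first window under 0.5, and signal can resume beyond it. Whether little far signal limited the change in the groups of short extent was not tested.

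The group in which a start and a long transcribed span were both clear held 502 identifiers, with a start step of at least 4-fold and signal in all 20 windows, called continuous spans here. Their median signal from 0 to 10 kb was 12.1 per bin at 3 h and 7.25 in mock, and their median signal from 50 to 100 kb was 1.11 at 3 h and 2.84 in mock. The median log2 change (pseudocount 0.1, which understates changes of low signal) was 0.68 from 0 to 5 kb, 0.76 from 5 to 10 kb, 0.42 from 10 to 15 kb, 0.16 from 15 to 20 kb and -0.08 from 20 to 25 kb. Farther on it fell in each window from -0.31 at 25 to 30 kb to -0.86 at 45 to 50 kb, and it stood at -1.37 from 80 to 85 kb. The change therefore turned from gain to loss between 15 and 25 kb and levelled out past about 70 kb, where the windows lay between -1.24 and -1.37.

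In the continuous spans the median near share was 63.3% at 3 h and 36.2% in mock. The distance holding 50% of a span's signal had a median of 14.0 kb at 3 h and 40.6 kb in mock. The median span had its first window below mock at 15 kb and 13 of 20 windows below mock.

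The spans did not all follow the median. Of the 502, 319 (63.5%, 59.2 to 67.6) had more signal from 0 to 10 kb and less from 50 to 100 kb at 3 h than in mock. Among all 2250 identifiers whose mean signal from 50 to 100 kb over the WT pair was 0.5 or more and whose level in KO and rescue mock was 1 or more, 911 (40.5%) did. Of the other spans, 114 (22.7%) had more in both, 49 (9.76%) less in both, and 20 (3.98%) less near and more far. From 50 to 100 kb, 271 (54.0%, 49.6 to 58.3) were at least 2-fold lower and 6 (1.195%) at least 2-fold higher. Among the same 2250 identifiers, 30.4% were at least 2-fold lower and 4.18% at least 2-fold higher. The upper end of the spread stayed near 0: the 75th percentile of the far log2 change was 0.04 and the 90th 0.46, against -1.77 at the 25th and -2.22 at the 10th.

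The far loss varied with the shape of the span in KO and rescue mock. In 167 spans a window past 25 kb stood at 3 times the span's median window or more, as a neighbouring or internal start could give, and in 335 no window did. Without such a window, the median signal from 50 to 100 kb was 0.690 at 3 h and 2.21 in mock, with a median log2 change of -1.47, and 227 of 335 (67.8%, 62.6 to 72.5) were at least 2-fold lower. With such a window, the median signal was 4.797 at 3 h and 4.89 in mock, with a median log2 change of -0.01, and 44 of 167 (26.3%, 20.3 to 33.5) were at least 2-fold lower. A near gain from 0 to 10 kb was present in both, and it was smaller with such a window. The median log2 change there was 0.78 without and 0.55 with it. Whether these windows hold other starts was not tested, since gene positions were not analysed.

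Values also differed by level among the continuous spans. The far log2 change had a median of -1.35 in 196 spans with a level from 1 to 4, -1.01 in 270 with a level from 4 to 20 and -0.92 in 36 with a level over 20. The near change was 0.78, 0.67 and 0.18 in the same order. Of the 36 highest spans, 14 (38.9%, 24.8 to 55.1) combined near gain with far loss, against 134 of 196 (68.4%, 61.6 to 74.5) of the lowest.

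**Figure D4:**
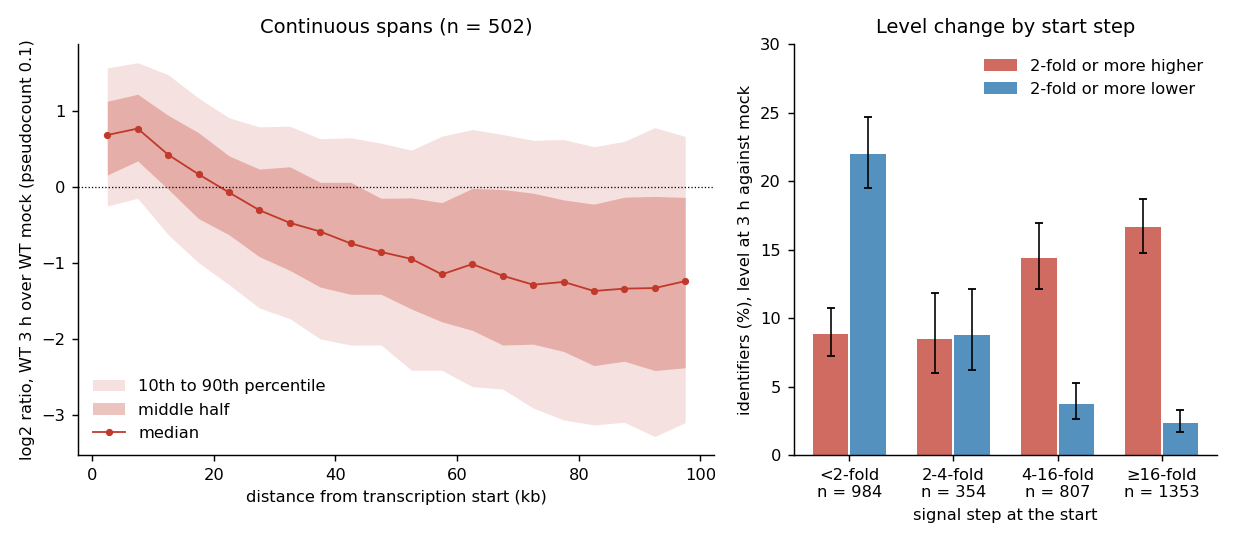
The left plot gives the log2 ratio of WT 3 h to WT mock (pseudocount 0.1) in 5-kb windows for the 502 continuous spans, as the median (line), the 25th to 75th percentiles (dark band) and the 10th to 90th percentiles (light band). The right plot gives the percentage of identifiers whose level from 0 to 25 kb was at least 2-fold higher (red) or lower (blue) at 3 h than in mock, by the step of signal at the start, with 95% Wilson intervals. The median crosses 0 near 20 kb, and lower levels are most frequent where there is no step.

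Over all identifiers with a mean level of 1 or more in the WT pair (3514), 537 (15.3%) had a level at least 2-fold higher at 3 h than in mock and 196 (5.58%) a level at least 2-fold lower, with a median log2 change of 0.40. The filter on the mean acts on the change itself: 77 of the 537 had a mock level under 1 and passed through their 3 h level. Without it, 699 of 8791 (7.95%) were higher and 676 (7.69%) lower. With the 3 h values rescaled so that this median was 0, a shift of -0.40, 180 were higher and 323 lower, so which direction was more frequent depended on the scaling. Past 4-fold, without rescaling, 30 were higher and 50 lower. By class and without the filter, 259 of 1774 identifiers with a level from 1 to 4 were higher and 222 lower, 190 of 1518 with a level from 4 to 20 were higher and 64 lower, and 11 of 215 with a level over 20 were higher and 6 lower. At the class limit of 4, the identifier just above had a level of 6.12 at 3 h and 4.01 in mock, and the one just below had 5.42 at 3 h and 3.995 in mock. At the limit of 1 the pair had 2.19 at 3 h and 1.01 in mock just above, and 0.572 at 3 h and 0.996 in mock just below. At the limit of 20 it had 29.5 at 3 h and 20.02 in mock just above, and 18.3 at 3 h and 19.95 in mock just below.

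Lower levels belonged mostly to identifiers with no step at their start. Of the 3498 identifiers grouped on KO and rescue mock, 13.1% had a level at least 2-fold higher at 3 h than in WT mock and 8.83% one at least 2-fold lower. With a step under 2-fold, 216 of 984 (22.0%, 19.5 to 24.6) were lower and 87 (8.84%) higher, with a median log2 change of 0.00. With a step of 2- to 4-fold, 31 of 354 (8.76%, 6.24 to 12.2) were lower. With a step of 4- to 16-fold, 30 of 807 (3.72%, 2.62 to 5.26) were lower, and with 16-fold or more, 32 of 1353 (2.37%, 1.68 to 3.32) were lower and 225 (16.6%, 14.7 to 18.7) higher, with a median log2 change of 0.49. Without a step, the first 25 kb can lie inside a longer transcribed region that began upstream. The contrast was also present within a level class: from 1 to 4, 203 of 858 (23.7%) with a step under 4-fold were lower, against 31 of 1017 (3.05%) with a larger step.

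The range is shown by 4 identifiers, the 2 highest and 2 lowest by log2 change of level among 1978 with a mean level of 4 or more. They were chosen by this change, which is a description. The identifier uc059hwj.1 had a level of 50.6 at 3 h and 3.49 in mock, a log2 change of 3.82. Its signal from 0 to 5 kb was 238 per bin at 3 h and 15.1 in mock, while from 30 to 35 kb it was 1.34 at 3 h and 14.7 in mock, and its near share was 97.1% at 3 h and 24.5% in mock. Gain and loss thus lay within 35 kb of the same start. In mock the windows from 5 to 25 kb between them held only 0.325 to 0.974 per bin. Whether both stretches belong to 1 transcribed unit was not tested. The identifier uc001bps.4 had a level of 113.9 at 3 h and 14.6 in mock, a log2 change of 2.96, with each of its first 7 windows higher at 3 h and a near share of 92.3% at 3 h and 62.3% in mock.

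The identifier uc062ihi.1 had a level of 5.10 at 3 h and 26.9 in mock, a log2 change of -2.38. It was lower in all 20 windows, from 6.17 per bin at 3 h against 21.3 in mock from 0 to 5 kb to 3.71 at 3 h against 10.3 in mock from 95 to 100 kb, and its near share hardly differed, at 51.3% at 3 h and 48.96% in mock. The identifier uc059ynq.1 had a level of 1.51 at 3 h and 8.13 in mock, a log2 change of -2.35. Its signal from 5 to 1 kb upstream was 1.33 at 3 h and 7.92 in mock, about as high as its level, so no step marked its start. In KO the levels of these 4 identifiers were 19.99, 45.7, 2.23 and 3.83 at 3 h, against 0.709, 5.003, 11.96 and 8.62 in mock, in the same directions as in WT. In rescue they were 28.6, 55.03, 1.82 and 3.32 at 3 h, against 0.838, 4.68, 14.4 and 9.01 in mock, again in the same directions.

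For scale, the spread of level ratios between libraries that both lack UV was set beside these changes. Over identifiers with a mean level of 1 or more, the 5th to 95th percentiles of the log2 ratio of WT 3 h to WT mock ran from -1.11 to 1.42, a width of 2.53. For KO mock over rescue mock the width was 0.97, with 14 of 3498 (0.4%) at least 2-fold higher and 7 (0.2%) at least 2-fold lower. For WT mock over KO mock it was 2.24, with 6.68% higher and 6.28% lower, and for WT mock over rescue mock it was 2.33, with 9.89% higher and 5.52% lower. Differences of 2-fold in single identifiers therefore also lay between untreated WT and the knockout-derived lines. The median shift of 0.40 in WT, which depends on how the libraries were scaled, exceeded those between mock libraries, which were 0.10, 0.05 and 0.15. After UV the other lines, each over its own mock, had median shifts of only 0.17 in KO and 0.14 in rescue. Both lay near the 0.15 of WT mock over rescue mock. Their widths were 2.398 in KO, with 9.16% higher and 6.79% lower, and 2.57 in rescue, with 9.07% higher and 7.71% lower.

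**Figure D5:**
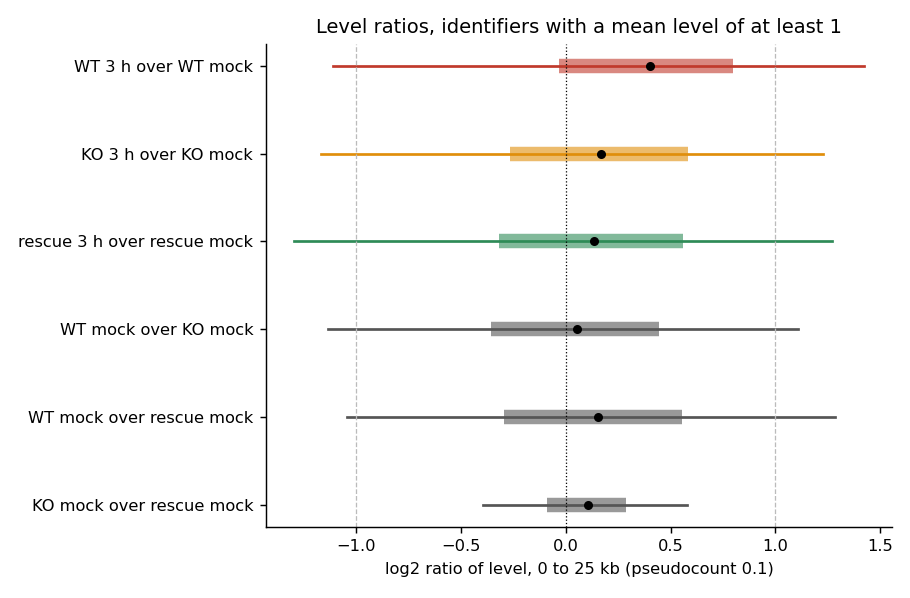
Each row gives the log2 ratio of level from 0 to 25 kb (pseudocount 0.1) between 2 libraries over identifiers whose mean level was 1 or more: the median (point), the 25th to 75th percentiles (thick bar) and the 5th to 95th percentiles (thin line). Dashed lines mark 2-fold. The WT 3 h row is centred at 0.40, and the row of KO mock over rescue mock is the narrowest, with a width of 0.97.

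KO and rescue, each against its own mock, gave a further frame for the WT response. In the averages of genes of at least 100 kb, the crossing of 1 lay at 17.0 kb in WT, against 13.8 kb in KO and 14.2 kb in rescue. From 5 to 25 kb the log2 ratio changed by -0.75 per 10 kb in WT, against -0.23 in KO and -0.46 in rescue. The highest ratio lay at 2400 bp in WT, against 800 bp for KO and 1600 bp for rescue. Over the first 1 kb the ratio was lower in WT, at 1.69, with 2.096 for KO and 1.83 for rescue. It was also lower in WT over the last 25 kb of the profile, at 0.272, with 0.443 for KO and 0.329 for rescue. In the library files, with classes cut on the mean of the 3 mock libraries, the lines differed most, of 5 regions compared in the class from 4 to 20, from 5 to 10 kb: the pooled ratio there was 1.52 in WT, against 1.11 in KO and 1.29 in rescue, and 23.2% of identifiers were below mock in WT, with 49.9% for KO and 39.3% for rescue. The shares below mock in that class lay close together from 75 to 100 kb, with 62.7% for WT, against 64.4% for KO and 63.0% for rescue. These shares and the far ratios of the averages are different measures over different sets, and the class is not limited by gene length. The WT gain from 5 to 10 kb was thus the larger in the values as deposited, at depths that also differed. The smallest step at 3 h was 4.88 in KO and 2.44 in rescue. Scaling differed too. Relative to the mean of the 9 libraries, the trimmed mean of level was 1.19 in WT 3 h and 0.925 in WT mock. It was 0.991 in KO 3 h and 0.875 in KO mock, and 0.890 in rescue 3 h and 0.815 in rescue mock. The trimmed mean thus rose most from mock to 3 h in WT. The ratios from 5 to 10 kb were not recomputed after such scaling, so they do not show that the WT gain stays the larger. In the level from 0 to 25 kb, the median log2 difference of the WT response from KO and rescue was 0.23 before such scaling and 0.02 after it.

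The difference in the 3 h response between WT and the other 2 lines was tested across identifiers with limma over all 9 libraries. With 2 residual degrees of freedom, 0 of 3602 identifiers with a mean level of 1 or more passed a Benjamini-Hochberg adjusted p of 0.05 in the level from 0 to 25 kb, which is 0% called, while 148 had an unadjusted p below 0.05; the log2 difference had a median of 0.23, which was 0.02 after trimmed-mean scaling of the libraries. Without the 16 h libraries, with 1 residual degree of freedom, 56 identifiers passed, 40 higher and 16 lower in WT. In near over far signal, 0 passed and 159 had an unadjusted p below 0.05, and the median was 0.24. On simulated data the test on level made 0 false calls and found 3 of the 100 identifiers given a 2-fold change, and 53 of the 100 given a 4-fold change. The simulation gave each identifier 1 normal spread, the same in all 9 libraries. The real libraries differed in depth, with smallest steps from 0.373 in WT 16 h to 4.88 in KO 3 h. The 0 false calls therefore hold for the simulated setting only. Even there, a WT-specific change of 2-fold in single identifiers was rarely detected.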

How the data were processed

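Per the labels' protocols, BrU-seq used the TruSeq kit and NovaSeq paired-end reads. Without stating roles, the submitters' processing notes list the builds hg38 and GRCh38 and, among tools, HOMER 4.8.2 and STAR 2.7.7a, besides Trim Galore 0.6.5, FastQC 0.11.9 and R 4.0.5. The deposited signal is coverage in 1001 bins of 200 bp around each transcription start, per the file headers, and 100% of values were whole multiples of the smallest value (tolerance 0.02). Count models were not used on these values. The authors' averaged signal was used as deposited, and the sources used here do not give its scaling, so it was not set against library values.

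From the files, values under 1e-06 were set to 0 as rounding residue, means were taken over 5-kb windows, and log2 ratios used a pseudocount of 0.1. Calls are changes of 2-fold or more in identifiers with a mean level of 1 or more. The test was limma 3.58.1 (R 4.3.3) with terms for line, time and WT by time, whose error is the spread between the KO and rescue responses, and not between repeated cultures. It was tested on simulated data. Other values came from Python 3.11.15, numpy 2.4.6, pandas 2.3.3 and scipy 1.17.1. The rule for naming identifiers took the 10 highest and 10 lowest by change where gene names exist, and the 2 highest and 2 lowest otherwise. The identifiers, classes and groups were chosen with earlier results of these data known. No columns of other samples were present in the averages tables, and 302 identifiers had no signal from 0 to 100 kb in either WT library. Alternatives covered class limits, scaling, pseudocount, windows, filters and left-out libraries.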

Additional observations from a re-analysis of the deposited data

How the results depend on the processing

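Of 70 alternative values for main results, 32 stayed the same, meaning within 1.5 times for counts, within the interval for shares and equal to the digits printed for ratios, distances and point changes. Of the ratios and point changes 0 crossed their neutral value, but higher levels outnumbered lower ones only in some settings. The pooled ratio from 0 to 5 kb over levels of 1 or more, 1.48, was 1.47 with classes cut on KO and rescue mock, 1.49 with classes cut on the WT mean, 1.52 without the 10% of identifiers with the most signal, 1.33 as a median over identifiers and 1.12 after rescaling. From 75 to 100 kb the ratio of 0.976 was 0.986, 0.984, 0.906, 0.864 and 0.740 under the same settings. The first window below mock, at 25 kb, began at 10 kb after rescaling, 26 kb with 2-kb windows and 30 kb with 10-kb windows, and the 64.2% below mock at 75 to 100 kb became 75.3% after rescaling. The near share change of 5.04 points was 5.08 and 5.96 with the other class cuts, 2.17 with the first 50 kb as near, and 13.5 in identifiers with signal in every window. The 733 levels past 2-fold (537 higher, 196 lower) were 80 (30 and 50) past 4-fold, 1375 without the level filter, of which 676 were lower, and 378 over 100 kb, of which 190 were higher; after rescaling 180 were higher and 323 lower. In the averages of genes of at least 100 kb, scaling both columns to the same sum gave a highest ratio of 2.59, a crossing at 17.2 kb and a far ratio of 0.288; the highest ratio was 2.57 without a running mean and 2.23 with one of 5 kb, which put the crossing at 17.4 kb. Without the 16 h libraries, with 1 residual degree of freedom, limma called 56 identifiers, 40 higher and 16 lower in WT, against 0.

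By class, 10 of 126 values turned direction, all of them ratios. The 126 include shares and distances, which could not turn under the rule used. The count is therefore no measure of how stable the class ratios were. The class under 1 had ratios from 0 to 5 kb of 0.871 with classes cut on the WT mean and 0.946 after rescaling, and far ratios of 0.935 without the 10% highest and 0.827 after rescaling. The far ratio of the class from 4 to 20 was 0.980 with classes cut on the WT mean, 0.927 without the 10% highest, 0.890 as a median and 0.767 after rescaling. That of the class over 20 was 1.03 with classes cut on the WT mean and 1.07 without the 10% highest. Alternatives added after seeing the data moved the 54.0% of continuous spans lower from 50 to 100 kb to 61.6% after rescaling and 41.6% with a pseudocount of 0.5, the 22.0% lower without a start step to 29.2% after rescaling, and the 2.37% with a step of 16-fold or more to 4.58% after rescaling. With groups taken from WT mock in place of KO and rescue mock these were 52.5%, 19.6% and 2.77%. Causes of these shifts were not tested beyond what each setting changes. No paired analysis was possible because each line and condition had 1 library, numbered 1 where column headers give a number, so that the groups share fewer than 2 numbers; line was a term of the limma fit. Depth limits what sparse far windows can show: a value of 1 bin at the smallest step was 0.760 at 3 h and 1.35 in mock.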
